A study of Mus musculus with 78 samples.

Results

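The ventral and the dorsal striatum of mice that had drunk ethanol were compared within animals, using 24 of the 78 RNA libraries of the series: 12 libraries titled ventral striatum and 12 titled dorsal striatum, 1 of each from every mouse. All libraries with these region names were taken from both count tables, 1 table for each sex. The 12 mice were single-housed C57BL6/J adults, 3 for each combination of sex and genotype. The 6 ACSS2 KO mice carried a constitutive CRISPR deletion in Acss2, made with guides in the introns flanking exons 3 to 7. The 6 others were WT. All 12 had gone through drinking in the dark, in which mice take ethanol in bouts during the night phase, with 15% ethanol offered beside water in sessions of 2 h on days 1 to 3 and 4 h on day 4, and then a week of sessions without water. No mouse without ethanol is in the series, so every value below describes drinking animals, and the deletion was present in every cell type. The question was how the regions differ in mice of both genotypes, and then in WT and KO mice taken separately.

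The striatum is built mostly of GABAergic projection neurons. Those of the direct pathway carry the dopamine receptor Drd1 with the peptides substance P (Tac1) and dynorphin (Pdyn), and those of the indirect pathway carry Drd2, the adenosine receptor Adora2a and enkephalin (Penk). The dorsal part serves actions and habits and receives sensorimotor and associative input. The ventral part, which holds the nucleus accumbens and borders the olfactory tubercle, the ventral pallidum and the preoptic area, serves motivation and reward. Interneurons that use acetylcholine, somatostatin or parvalbumin, and the white matter bundles that cross the dorsal part, are sampled in any piece of the tissue.

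The libraries held 5227813 to 14487778 counts, so that 3 counts, used here as the smallest level a library can show, equalled 0.207 to 0.574 counts per 1000000 counts (CPM). Levels in CPM are not corrected for gene length and were compared between libraries only. Acss2 stood at 35.9 to 73.8 CPM in the 12 WT libraries and at 3.01 to 10.3 CPM in the 12 KO libraries, as labelled. The ventral libraries carry the library numbers 25 to 36 in the labels and the dorsal ones 13 to 24, so library order and region cannot be told apart. The labelled tissue was checked with a score, the mean of log2(CPM + 1) over 15 projection neuron genes. Its median was 8.57 in the ventral and 8.82 in the dorsal libraries. In 5 libraries the score lay more than 1 log2 unit below the median of the region: ventral libraries of mouse 10 (male KO, 6.48), mouse 11 (female WT, 7.17) and mouse 13 (male WT, 5.72), and dorsal libraries of mouse 10 (5.41) and mouse 23 (female WT, 4.72). The smallest shortfall among these 5 was 1.40 below the region's median, and the lowest of the other 19 libraries lay 0.463 below its own. Those others scored 8.11 to 9.41 in the 9 ventral and 8.47 to 9.44 in the 10 dorsal libraries. For comparison, the 12 dorsal hippocampus libraries of the same mice scored 4.47 to 4.94.

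The dopamine receptor Drd1, which is 1 of the 15 genes of the score and so no separate check, shows the size of these shortfalls. It was at 13.9 and 10.8 CPM in the dorsal libraries of mice 10 and 23, against 219 to 417 CPM in the other 10. Its levels were 37.9, 69.8 and 18.1 CPM in the ventral libraries of mice 10, 11 and 13, against 155 to 345 CPM in the other 9. Both low dorsal libraries had high levels of genes of cortical excitatory neurons: Slc17a7, the vesicular glutamate transporter of these cells, was at 1763 and 1856 CPM there and at most at 862 CPM in the other dorsal libraries. Summed over 13 listed cortical genes, their levels were 4036 and 3948 CPM, against 357 to 2019 CPM in the rest of the dorsal libraries. The ventral library of mouse 10 had 842 CPM of Slc17a7, against at most 768 CPM in the 9 ventral libraries with ordinary scores. It also had 4704 CPM of the myelin gene Mbp, against at most 2682 CPM in those 9. The ventral library of mouse 11 had 3798 CPM of Mbp. The ventral library of mouse 13 instead had 334 CPM of Slc17a6, the glutamate transporter of diencephalic neurons, and 141 CPM of Tcf7l2, a thalamic transcription factor; the highest levels in the 9 ventral libraries with ordinary scores were 92.0 and 24.3 CPM. These 2 genes were picked from a list of 12 pallidal and thalamic genes, and the sum of the whole list in that library, 1664 CPM, was below the ventral median of 1816 CPM. The list also holds the projection neuron gene Penk, which was at 149.6 CPM there and at a ventral median of 1222 CPM. Whether the 5 libraries hold neighbouring tissue, or were exchanged with others, was not tested. They were kept in the fit of all 12 mice, and the counts of each list are set beside the fit of the 8 mice with neither library low (3 WT and 5 KO).

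**Figure D1:**
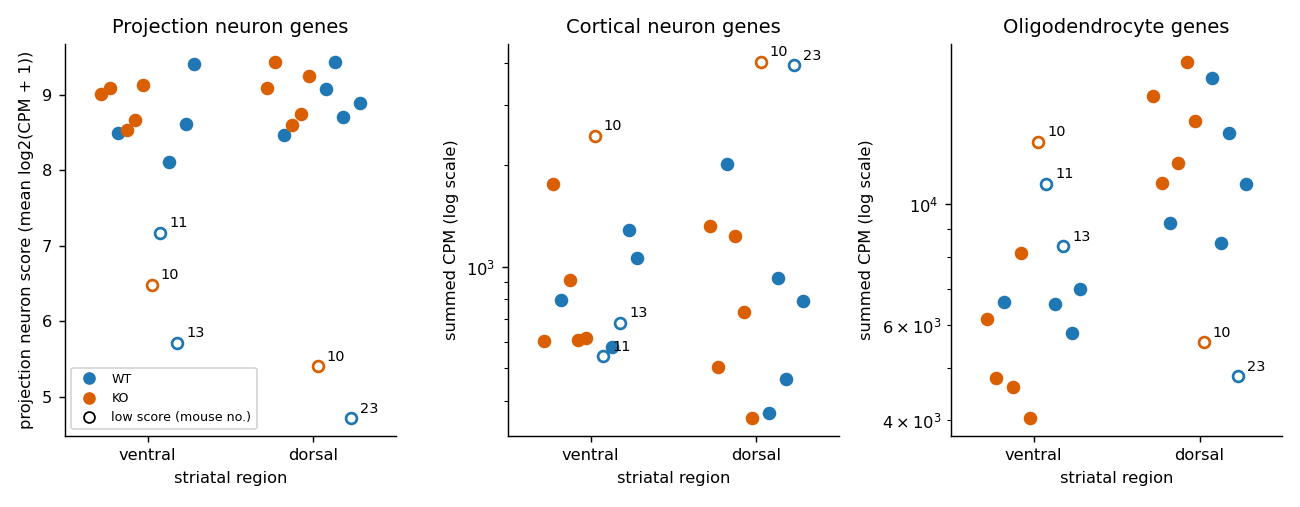
Each point is a library, placed by striatal region and coloured by genotype. The panels show the projection neuron score (mean of log2(CPM + 1) over 15 genes) and, on log axes, the summed CPM of cortical excitatory neuron and of oligodendrocyte genes. Open points with a mouse number are the 5 libraries with a low score, and the low dorsal libraries of mice 10 and 23 have the highest cortical sums, 4036 and 3948 CPM.

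Region differences were common. With the mouse as a block, 1568 of 13599 genes tested (11.5%) passed an adjusted p of 0.05 in edgeR's quasi-likelihood test, of which 795 (5.85%) were higher in the ventral and 773 (5.68%) higher in the dorsal striatum. A fold difference of 2 or more was found for 188 of them. In the 8 mice, 1937 of 13596 genes passed (14.2%), 948 higher (6.97%) and 989 lower (7.27%) in the ventral striatum. Both fits called 1114 genes, 71.0% of the calls in 12 mice and 57.5% of those in 8, and all 1114 had the same direction. The fits share 8 mice. Few genes separated the regions completely: CPM ranges did not overlap for 24 genes (0.176%) in 12 mice and for 293 (2.15%) in 8. Throughout, differences are log2 fold changes of ventral over dorsal striatum, with the model's standard error (SE). In bulk tissue, fewer cells of a type and less RNA per cell cannot be told apart. The labels name each mouse, so the spread behind the p-values is that between animals.

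Among the genes called, those with the same direction in all 12 mice and the largest fold differences are described first; 226 called genes were higher in the ventral library of every mouse and 35 were lower. The ventral side was led by Dlk1, an imprinted gene for a transmembrane ligand related to Notch ligands (chr12:109452823-109463336, plus strand, GRCm38). Dlk1 was at 74.5 to 162 CPM (median 91.7) in the ventral libraries and at 0.342 to 49.1 CPM (median 7.47) in the dorsal ones. The ranges did not overlap, and the log2 fold change was 3.52 ± 0.49 (SE, edgeR adjusted p = 0.000737) in 12 mice and 3.42 ± 0.40 (edgeR adjusted p = 0.00132) in 8. Peg10, another imprinted gene, derived from a retrotransposon (chr6:4747306-4760517, plus strand), was at 150 to 324 CPM (median 170) against 12.8 to 128 CPM (median 27.2). Its ranges were also apart, with a log2 fold change of 2.49 ± 0.23 (edgeR adjusted p = 7.54e-05), and 2.31 ± 0.27 in 8 mice. Gpr101, an orphan receptor, was at 36.3 to 109 CPM (median 57.1) against 0.469 to 26.4 CPM (median 8.32), with a log2 fold change of 2.85 ± 0.37 (edgeR adjusted p = 0.000467). Its lowest ventral library thus lay above its highest dorsal one. Npy2r, a receptor of neuropeptide Y, was at 18.9 to 36.3 CPM (median 26.1) against 1.25 to 16.1 CPM (median 9.42), again with no overlap, and differed by 1.76 ± 0.29. Cdh4, a cadherin of cell adhesion, was at 37.2 to 71.2 CPM against 10.1 to 32.8 CPM, also without overlap, and differed by 1.51 ± 0.16. For 7 further genes the ranges touched: Dgkk, a diacylglycerol kinase (2.64 ± 0.34), Ndst4, a heparan sulfate sulfotransferase (2.39 ± 0.31), Cbln4, a secreted synaptic organizer (2.18 ± 0.26), the kinase Stk32b (2.08 ± 0.32), the glycine receptor subunit Glra3 (1.79 ± 0.34), the serotonin receptor Htr4 (1.53 ± 0.29) and the orphan receptor Gpr165 (1.53 ± 0.26). All 12 genes also passed in the 8 mice, with log2 fold changes from 1.28 for Gpr165 to 3.42 for Dlk1.

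On the dorsal side 1 gene stood out. Thbs4, which encodes the extracellular matrix protein thrombospondin 4 (chr13:92751590-92794818, minus strand), was at 0.354 to 5.38 CPM (median 1.18) in the ventral and 6.15 to 31.4 CPM (median 14.8) in the dorsal libraries. The ranges were apart in 12 mice, and the log2 fold change was -3.26 ± 0.39 (SE, edgeR adjusted p = 0.000259), or -3.39 ± 0.47 in 8 mice. The ventral libraries held 2 to 30 counts of Thbs4, several of them near the floor of 3 counts, so the size of this difference is imprecise. The other genes of this side differed less. Rapgef4, a cAMP-activated exchange factor for Rap (chr2:71981240-72257474, plus strand), was at 368 to 875 CPM (median 488) against 834 to 1320 CPM (median 1096). It was lower in the ventral library of every mouse, although 1 ventral value reached into the dorsal range, and differed by -1.12 ± 0.11 (edgeR adjusted p = 9.7e-05). Its ranges were apart in the 8 mice. Camk2n1, an inhibitor of CaM kinase II, was at 681 to 1794 CPM (median 853) against 1003 to 1978 CPM (median 1577), with a log2 fold change of -0.85 ± 0.12 (edgeR adjusted p = 0.00106). Its ranges overlapped in 12 mice and not in 8. The remaining 9 named genes lay between -0.96 ± 0.17 for Hsd11b1, which regenerates active glucocorticoid, and -0.57 ± 0.07 for the sialyltransferase St3gal6. In order these are Hsd11b1, the membrane linker Ezr (-0.83), the myosin Myo1e (-0.69), Smim3 (-0.69), the IP3 receptor Itpr1 (-0.67), Dio2, which activates thyroid hormone (-0.63), Afap1l1 (-0.61), the apoptosis inhibitor Aven (-0.59) and St3gal6. Itpr1 did not pass in the 8 mice (-0.44 ± 0.14, edgeR adjusted p = 0.057), and the 11 others did.

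**Figure D2:**
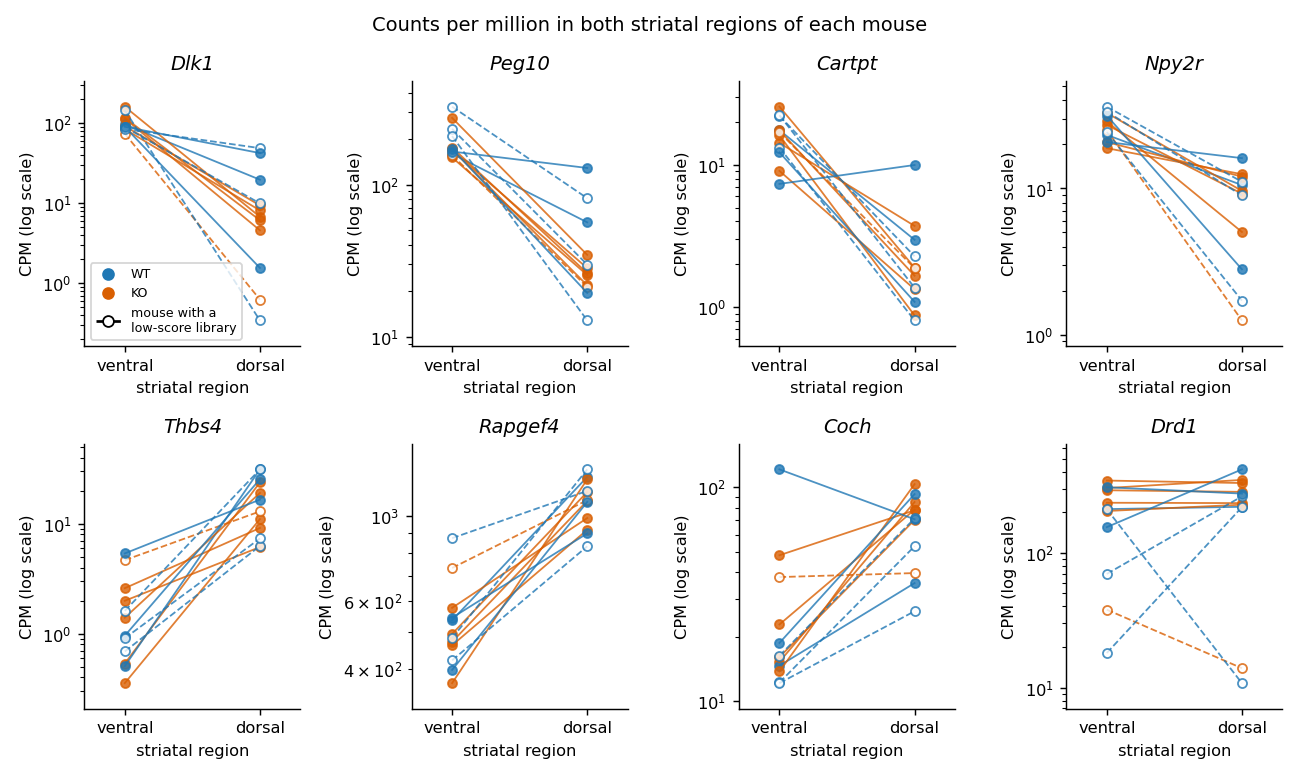
Each line joins the ventral and the dorsal library of a mouse, with CPM on log axes, for 8 genes. Orange lines are KO and blue lines WT mice, and dashed lines with open points are the 4 mice with a low-score library. Dlk1, Peg10 and Npy2r lie higher in the ventral and Thbs4 in the dorsal library of all 12 mice, while Drd1 was higher in the ventral library of 6 mice and lower in the other 6.

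Of the 15 genes that define the projection neurons themselves, none passed in 12 mice (median log2 fold change -0.24, against -0.02 over all genes tested), and 12 of the 15 had negative fold changes. Drd1 was at 18.1 to 345 CPM (median 211) in the ventral and at 10.8 to 417 CPM (median 249) in the dorsal libraries, a difference of -0.24 ± 0.45. The lowest values of both regions were those of the low-score libraries, and in 8 mice the difference was -0.23 ± 0.16 (edgeR adjusted p = 0.374). Drd2 differed by -0.33 ± 0.57, Adora2a by -0.16 ± 0.56, Penk by 0.12 ± 0.46, Tac1 by 0.06 ± 0.33 and the phosphatase inhibitor Ppp1r1b (DARPP-32) by -0.44 ± 0.50. With these standard errors, a difference of 2-fold in most of these genes would not be detectable in 12 mice. In 8 mice only Rasd2, a small GTPase of striatal neurons, passed among the 15 (-0.60 ± 0.17, edgeR adjusted p = 0.0415).

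Genes known for a place along the dorsal to ventral axis were looked at as 2 lists. Of 15 genes known as ventral, 12 passed as higher in the ventral striatum, against 5.85% of all genes, and all 15 had positive fold changes (median 1.72). In 8 mice 9 passed, with a median of 1.71. Wfs1, an endoplasmic reticulum protein, was at 121 to 817 CPM (median 399) against 58.7 to 165 CPM (median 92.7), a difference of 1.72 ± 0.28 that was present in 11 of 12 mice. Its ranges were apart in the 8 mice (1.99 ± 0.24, edgeR adjusted p = 0.00152). Ecel1, an endopeptidase, differed by 1.37 ± 0.32, and the D3 dopamine receptor Drd3 by 1.99 ± 0.38. Nnat (0.97 ± 0.29), the thyrotropin-releasing hormone receptor Trhr (2.31 ± 0.52) and the neurokinin receptor Tacr3 (1.02 ± 0.25) passed in 12 mice and not in 8 (edgeR adjusted p = 0.069, 0.0985 and 0.0742). The 12 genes known as dorsal all had negative fold changes (median -0.30), but 1 passed, in 12 mice as in 8, against 5.68% of all genes in 12 mice. That gene was Coch, for cochlin, a matrix protein, at 12.2 to 121 CPM (median 16.2) in the ventral and 26.4 to 103 CPM (median 71.2) in the dorsal libraries. It was lower in the ventral library of 11 of 12 mice (-1.58 ± 0.29, edgeR adjusted p = 0.00414), and the ranges overlapped. The cannabinoid receptor Cnr1 differed by -0.66 ± 0.26 (edgeR adjusted p = 0.109). The ventral list was put together with the region's known markers in mind, so its direction is a check of the labels more than a result. Members of the lists below were also chosen with earlier results of these data known. Their counts, set beside the share of all genes, describe the members and are no test of the lists.

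Dopamine and cAMP signalling genes were called in both directions, at shares near those of all genes. Of 25 tested (of 26 listed), 2 passed as higher and 3 as lower in the ventral striatum, against 5.85% and 5.68% of all genes, and 19 of the 25 had negative fold changes (median -0.24). Higher were receptors at low level: Drd3, at 0.865 to 7.99 CPM (median 4.14) against 0 to 2.26 CPM (median 1.25), and Drd5, at 1.90 to 8.55 CPM (median 5.70) against 1.80 to 5.20 CPM (median 3.35), with a difference of 0.68 ± 0.17 (edgeR adjusted p = 0.0209). Drd3 ranges were apart in the 8 mice, and Drd5 ranges overlapped in both fits. Lower were the regulator of G protein signalling Rgs4 (-0.78 ± 0.17), the phosphatase regulator Arpp19 (-0.74 ± 0.18) and the phosphatase subunit Ppp1r16b (-0.58 ± 0.16). These 3 passed in the 8 mice as well, together with Rasd2.

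Neuropeptides were higher in the ventral striatum where they differed. Of 18 peptide genes tested (of 26 listed, the other 8 being too low), 7 passed as higher, against 5.85% of all genes, and none as lower, with a median of 0.71. With 8 mice, 9 passed as higher. Cartpt, which encodes the CART peptide of accumbens neurons, was at 7.35 to 25.7 CPM (median 16.5) in the ventral and 0.806 to 9.98 CPM (median 1.77) in the dorsal libraries, and was higher in 11 of 12 mice (2.85 ± 0.33, edgeR adjusted p = 0.00023). Its ranges overlapped through a single mouse, mouse 24 (female WT), whose dorsal library exceeded its ventral one. Mouse 24 is among the 8 mice and also went the other way for many other called genes, among them Coch, Nts and Gabrq. Further ones were Hap1, Nnat, Calb2, the opioid receptors Oprk1 and Oprl1, and the imprinted genes Ndn, Grb10, Zdbf2 and Impact. Rgs4, Egr1 and Arc, lower in the ventral striatum in the fit, were higher in the ventral library of this mouse. Its ventral library had the highest ventral level of Cnr1 (714 CPM). Its dorsal library had the highest dorsal levels of Peg10 (128 CPM), Gpr101 (26.4 CPM) and Npy2r (16.1 CPM). The 24 named genes kept their direction in this mouse, but their choice by 1 direction in all 12 mice fixes that. Whether its libraries hold tissue of both regions was not tested. Crh, the corticotropin-releasing hormone, was at 4.44 to 12.1 CPM (median 9.17) against 0 to 4.38 CPM (median 0.853), with no overlap and a difference of 2.82 ± 0.35 (edgeR adjusted p = 0.000386). Neurotensin (Nts) was at 6.85 to 50.6 CPM (median 23.9) against 0.342 to 11.1 CPM (median 3.25), a difference of 2.41 ± 0.38 (edgeR adjusted p = 0.00172) seen in 11 of 12 mice. Scg2, the granule protein secretogranin II, was at 443 to 900 CPM against 159 to 498 CPM, and differed by 1.07 ± 0.14. Tac2 for neurokinin B (2.41 ± 0.60), Trh (1.65 ± 0.37) and Nxph4, a neurexin ligand (1.27 ± 0.33), were each higher in 10 of 12 mice. Dynorphin's gene Pdyn was at 21.4 to 358 CPM (median 183) against 23.6 to 105 CPM (median 78.8). Its difference did not pass in 12 mice (0.95 ± 0.34, edgeR adjusted p = 0.0867) and passed in 8 (1.19 ± 0.23, edgeR adjusted p = 0.00793).

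Upstream sequences are shown for the genes with a cAMP response element and for the peptide gene Nts, since several peptide genes respond to cAMP and activity signals in cultured cells. The 250 bases before the start site were read from RefSeq (build GRCm38.p6) for the 24 named genes and the 7 peptide genes that passed, and 21 of these 31 were matched. Searched on both strands were the cAMP response element TGACGTCA, the AP-1 motif TGANTCA and the TATA box TATAAA, and no 2 matches overlap in the windows printed here. They occur in 1.55%, 6.75% and 12.4% of all 32851 windows of this kind. The cAMP element was found for 3 of the 21 genes, Cartpt, Scg2 and Dio2, starting 112, 68 and 95 bases before the start. An AP-1 motif was found for 3, Nts, Ezr and Aven, 207, 32 and 53 bases before it, and a TATA box for 2, Dio2 and Gpr165, at 30 bases in each. Several start sites are listed for Aven, and its match lies before an alternative one (window chr2:112559432-112559681). The window at the start of the Aven gene (chr2:112492714-112492963) had no motif. The shares above are of windows, and these counts are of genes. The windows are chr13:99900684-99900933 (minus strand) for Cartpt, chr1:79440027-79440276 (minus) for Scg2, chr12:90739039-90739288 (minus) for Dio2 and chr10:102490419-102490668 (minus) for Nts. Capitals mark the motifs. The matches describe these letters and were not tested for any role.
Cartpt: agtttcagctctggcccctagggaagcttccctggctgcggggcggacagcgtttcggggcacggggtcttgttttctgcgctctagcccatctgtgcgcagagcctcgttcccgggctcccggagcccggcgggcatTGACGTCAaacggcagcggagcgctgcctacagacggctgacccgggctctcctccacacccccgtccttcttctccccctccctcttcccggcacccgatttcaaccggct
Scg2: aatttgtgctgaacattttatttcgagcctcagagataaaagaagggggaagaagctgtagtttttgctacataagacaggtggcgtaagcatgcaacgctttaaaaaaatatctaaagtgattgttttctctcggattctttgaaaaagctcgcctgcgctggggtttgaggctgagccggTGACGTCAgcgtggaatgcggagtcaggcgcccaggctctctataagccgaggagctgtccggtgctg
Dio2: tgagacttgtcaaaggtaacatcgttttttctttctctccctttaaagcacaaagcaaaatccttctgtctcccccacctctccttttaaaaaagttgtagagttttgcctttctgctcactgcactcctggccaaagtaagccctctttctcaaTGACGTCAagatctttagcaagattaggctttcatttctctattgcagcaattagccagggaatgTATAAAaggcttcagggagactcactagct
Nts: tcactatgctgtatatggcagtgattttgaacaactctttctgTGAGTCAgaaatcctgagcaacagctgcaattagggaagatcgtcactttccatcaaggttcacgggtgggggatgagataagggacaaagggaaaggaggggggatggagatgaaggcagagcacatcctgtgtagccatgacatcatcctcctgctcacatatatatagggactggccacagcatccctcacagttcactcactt

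Both motifs were found on either side of the comparison. With the cAMP element, Cartpt and Scg2 were higher in the ventral and Dio2 in the dorsal striatum. With the AP-1 motif, Nts was higher in the ventral striatum, and Ezr and Aven (at an alternative start) in the dorsal striatum.

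Receptors for peptides showed the same ventral direction. Of 25 tested (of 28), 9 passed as higher, against 5.85% of all genes, and none as lower (median 0.61), and 7 passed in the 8 mice. Besides Npy2r, Trhr and Tacr3 these were Calcr, Hcrtr2, Oxtr, Mc4r, Npy5r and Adcyap1r1. The calcitonin receptor Calcr was at 2.87 to 17.6 CPM (median 7.92) in the ventral libraries, and in the dorsal ones at 0 to 4.99 CPM with a median of 0.139 CPM, below the level that 3 counts would give in any library. It was higher in all 12 mice, with a fitted difference of 3.47 ± 0.54 (edgeR adjusted p = 0.00147), a size that is imprecise because of the dorsal zeros. The orexin receptor Hcrtr2 was at 2.04 to 11.7 CPM (median 4.91) against 0.967 to 3.60 CPM (median 1.76) and was also higher in all 12 mice (1.37 ± 0.29). The oxytocin receptor Oxtr differed by 1.21 ± 0.29, the melanocortin receptor Mc4r by 0.88 ± 0.20, the neuropeptide Y receptor Npy5r by 0.65 ± 0.14 and the PACAP receptor Adcyap1r1 by 0.47 ± 0.10. Opioid genes were part of this picture: 3 of 7 tested passed, all receptors and all higher in the ventral striatum, and Pdyn joined them in the 8 mice. The mu receptor Oprm1 was at 1.04 to 6.09 CPM (median 4.72) against 0.513 to 4.82 CPM (median 1.38), a difference of 1.45 ± 0.30 (edgeR adjusted p = 0.00753). The kappa receptor Oprk1 differed by 0.86 ± 0.21 and the nociceptin receptor Oprl1 by 0.69 ± 0.15, and each of the 3 was higher in 10 of 12 mice with overlapping ranges.

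Ligand-gated receptors differed in particular subunits. Of 13 GABA-A subunits tested, 5 passed as higher in the ventral striatum, against 5.85% of all genes, and none as lower (median 0.38). Gabrq, the theta subunit, was at 3.89 to 69.0 CPM (median 12.6) against 0.146 to 16.3 CPM (median 1.36), a difference of 3.14 ± 0.46 (edgeR adjusted p = 0.00106) in 11 of 12 mice. Gabrg1, a gamma subunit, was at 37.6 to 123 CPM (median 60.0) against 18.9 to 52.5 CPM (median 30.9), with a difference of 1.06 ± 0.16. The subunits Gabrb1 (0.38 ± 0.09) and Gabra2 (0.31 ± 0.09) differed by less than 2-fold, and Gabra2 did not pass in 8 mice. Of 15 ionotropic glutamate receptor subunits, 3 passed as higher: Grin3a (1.07 ± 0.19), Grin2d (0.94 ± 0.21) and Grik1 (0.93 ± 0.26, edgeR adjusted p = 0.0689 in 8 mice, where Grik4 passed in its place), while the list's median was 0.01. Of 11 serotonin receptors, 2 passed in 12 mice, Htr4 and Htr2c. Htr2c was at 68.1 to 170 CPM (median 140) against 12.04 to 110 CPM (median 57.6), a difference of 1.24 ± 0.22 (edgeR adjusted p = 0.00297). In the 8 mice Htr1a, Htr1d and Htr2a passed too, and all 11 had positive fold changes. Among acetylcholine receptors the nicotinic subunit Chrnb2 passed, 1 of 7 tested in 12 mice as in 8, with a difference of 0.35 ± 0.05 that was present in all 12 mice. Among 19 potassium channel genes Kcnd3, a subunit of A-type channels, passed at 69.5 to 127 CPM (median 93.2) against 38.3 to 76.8 CPM (median 53.6), higher in all 12 mice (0.75 ± 0.12), and in 8 mice Kcnc1 passed too. With 1 call each, the acetylcholine receptor and potassium channel lists are near the share of all genes.

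**Figure D3:**
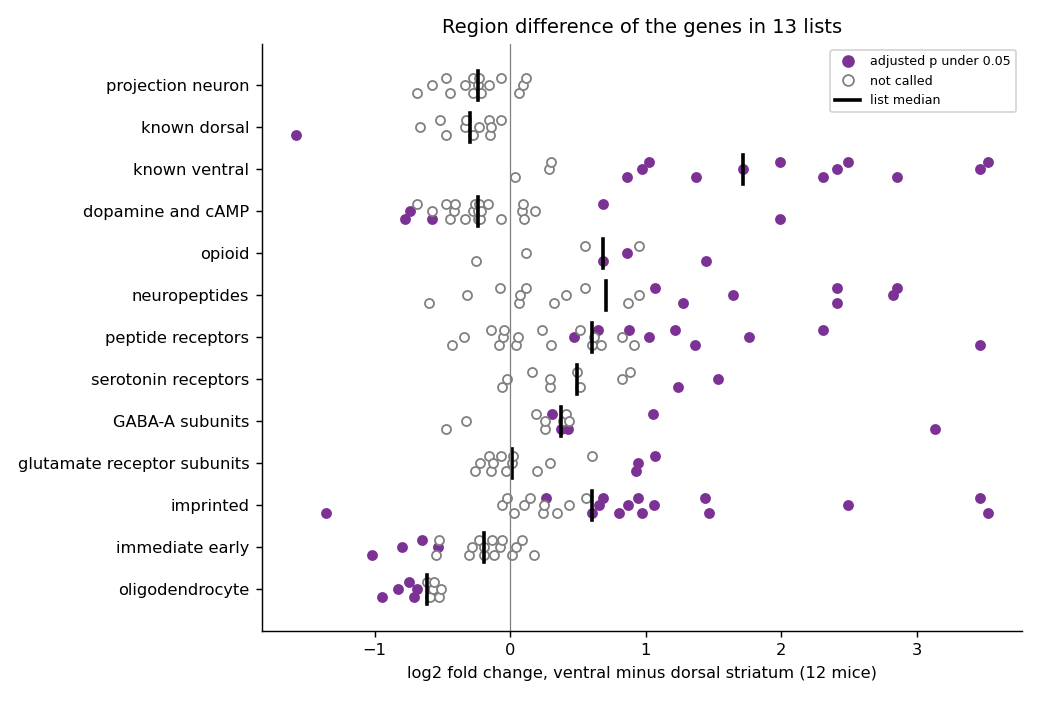
Points are genes of 13 lists, placed by their log2 fold change of ventral over dorsal striatum in 12 mice. Filled points passed an adjusted p of 0.05, open points did not, and the black bar is the list's median. The known ventral list (median 1.72) and the peptide, peptide receptor and imprinted lists reach far to the right, and oligodendrocyte genes all lie left of 0.

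Imprinted genes, which are expressed from 1 parental copy and are often high in hypothalamic and other subcortical neurons, were mostly higher in the ventral striatum. Of 25 tested (of 28), 14 passed as higher and 1 as lower, against 5.85% and 5.68% of all genes, with a median of 0.61, and in the 8 mice 12 and 1 passed with a median of 0.52. On chromosome 12, Dlk1 differed by 3.52 and its neighbour Rtl1 by 2.53 ± 0.33 (2.87 to 7.65 CPM against 0 to 2.33 CPM, ranges apart). Rtl1 was not on the list and was chosen after its values were seen. Both are expressed from the paternal copy. For the maternal noncoding genes of the same cluster the differences did not pass, Meg3 differing by 0.35 ± 0.18 (edgeR adjusted p = 0.223) and Rian by 0.10 ± 0.08 (edgeR adjusted p = 0.422). On chromosome 7, Usp29 was at 83.3 to 231 CPM (median 102) against 34.6 to 98.6 CPM (median 56.6), higher in all 12 mice (0.94 ± 0.10, edgeR adjusted p = 0.000141) and with separate ranges in 8. Its neighbours Peg3, a zinc finger gene (0.69 ± 0.13), and Zim1 (1.47 ± 0.32) were higher as well, Zim1 in 12 mice but not in 8 (edgeR adjusted p = 0.0779). Elsewhere Zdbf2 (1.06 ± 0.15), the growth factor adaptor Grb10 (0.87 ± 0.13), Nap1l5 (0.80 ± 0.17), Impact (0.65 ± 0.11), Ndn (0.61 ± 0.11) and Trappc9 (0.27 ± 0.06) passed in both fits, and Magel2 (1.44 ± 0.41) in 12 mice alone. The exception was Cdkn1c, a cyclin kinase inhibitor, at 0.995 to 5.19 CPM (median 1.97) in the ventral and 1.89 to 16.1 CPM (median 4.26) in the dorsal libraries. Cdkn1c was lower in the ventral library of 11 of 12 mice (-1.36 ± 0.32, edgeR adjusted p = 0.0165). Its highest dorsal levels, 16.1, 12.2, 11.3 and 6.65 CPM, were in mice 5, 6, 13 and 24. The dorsal libraries of these mice also had the highest sums of choroid plexus genes, as given below, and the part of that tissue was not tested. The setting for strand in the authors' counting is not given in the sources used here, so reads of Rtl1 and its antisense transcripts, or of Nnat and the gene it lies within, may be mixed.

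Among 21 transcription factors of the striatal lineage 1 was called, Foxp4 (0.44 ± 0.11), a share near that of all genes, and 3 in the 8 mice (Foxp4, Dlx5 and Zfp503). Factors of regional patterning differed in both directions, 4 higher and 1 lower of 20 (3 and 0 in the 8 mice), against 5.85% and 5.68% of all genes, and the median changed sign between 12 mice (0.06) and 8 (-0.20). Lhx6, a factor of interneurons from the medial ganglionic eminence, was at 25.1 to 73.6 CPM (median 45.3) against 10.1 to 24.6 CPM (median 18.7). The ranges were apart, with a difference of 1.21 ± 0.17 (edgeR adjusted p = 0.000917). Lhx8, needed for cholinergic neurons, differed by 1.58 ± 0.33, Tshz2 by 1.11 ± 0.19 and Gbx1 by 1.62 ± 0.42 (edgeR adjusted p = 0.0727 in 8 mice). Lhx2, a cortical patterning factor, was lower in the ventral striatum by -0.61 ± 0.14, and not in 8 mice (edgeR adjusted p = 0.0999). Genes of interneuron classes leaned the same way as Lhx6, with 6 of 16 higher, against 5.85% of all genes, and none lower, and 8 higher in the 8 mice. Gad2, a GABA synthesis enzyme, was at 408 to 778 CPM (median 725) against 148 to 555 CPM (median 416), higher in all 12 mice (0.80 ± 0.12). The nitric oxide synthase Nos1 differed by 0.73 ± 0.11, tyrosine hydroxylase (Th) by 1.19 ± 0.17, calretinin (Calb2) by 1.89 ± 0.37 and the choline transporter Slc5a7 by 0.90 ± 0.27. Choline acetyltransferase (Chat) did not pass, at 0.61 ± 0.28 (edgeR adjusted p = 0.166).

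Some markers of neighbouring tissue were also higher in the ventral striatum, but their lists share genes with those above. Nts was counted there among the peptides, Magel2 among the imprinted genes and Nnat among the known ventral genes. Calb2, Gbx1 and Tshz2 were counted among interneuron or patterning genes. Of 20 genes listed for hypothalamic, preoptic and extended amygdala neurons, 9 were tested and 6 passed as higher in the ventral striatum, against 5.85% of all genes: Slc17a6, Nts, Irs4, Hap1, Nnat and Magel2, of which Nts and Hap1 passed in 8 mice. Summed over the list, the level was 455 to 1955 CPM (median 622) in the ventral and 152 to 626 CPM (median 255) in the dorsal libraries. Hap1, the huntingtin-associated protein, differed by 1.68 ± 0.17 (252 to 852 CPM against 76.0 to 277 CPM). Genes that define hypothalamic cell groups were low. The highest ventral level was 0.182 CPM for Hcrt, 1.13 CPM for Pmch, 0.574 CPM for Agrp and 1.27 CPM for Pomc. Those of the paraventricular and supraoptic nuclei reached 3.06 CPM for Avp, 11.1 CPM for Oxt, 12.9 CPM for Otp and 4.03 CPM for Sim1, each in the low-score library of mouse 13. The ventral library of mouse 4, with an ordinary score and among the 8 mice, had 4.65 CPM of Otp, 2.49 CPM of Sim1, 2.16 CPM of Oxt, 1.16 CPM of Avp and 38.5 CPM of Irs4. Of 12 pallidal and thalamic genes, 6 passed as higher in 12 mice (Slc17a6, Tcf7l2, Calb2, Gbx1, Tshz2 and Slc32a1) and 3 in 8 (Calb2, Tshz2 and Slc32a1), with summed levels of 805 to 2491 CPM against 339 to 2292 CPM. The part of such tissue in the peptide, receptor and imprinted differences was not tested. In the 8 mice, which leave out mouse 13 and hold mice 4 and 24, Nnat, Trhr, Tacr3, Magel2 and Zim1 did not pass. Each of these was higher in the dorsal than in the ventral library of mouse 24, though only narrowly for Tacr3. Dlk1, Peg10 and Cdh4 passed, and they had been chosen for having 1 direction in all 12 mice. The cause of the lost calls was not tested.

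Oligodendrocyte genes lay on the dorsal side. All 11 had negative fold changes; 5 passed in 12 mice (median -0.61) and all 11 in 8 (median -0.92), against 5.68% and 7.27% of all genes called lower in these fits. Mbp, a major myelin protein, was at 1337 to 4704 CPM (median 2279) in the ventral and 1773 to 6623 CPM (median 4102) in the dorsal libraries, a difference of -0.83 ± 0.22 (edgeR adjusted p = 0.0283). Its highest ventral and its lowest dorsal values were those of low-score libraries, and in 8 mice the ranges did not overlap (-1.17 ± 0.17, edgeR adjusted p = 0.00264). Mobp and Mog likewise had separate ranges in the 8 mice, with differences of -1.35 ± 0.18 and -1.09 ± 0.16. The summed level of the 11 genes was 1.297 to 3.521 times higher in the dorsal than in the ventral library of those mice (median 2.273). Of 6 genes of their precursor cells, 4 passed as higher in the ventral striatum in 12 mice, against 5.85% of all genes, and 2 in 8, which were Pdgfra (0.35 ± 0.08 in 12 mice) and C1ql1 (0.83 ± 0.15). Of 11 astrocyte genes 2 were lower, the filament gene Gfap (-0.89 ± 0.25) and the glutamate transporter Slc1a2 (-0.34 ± 0.08), joined by the water channel Aqp4 in the 8 mice. None of 10 microglial genes passed in either fit. Ependymal and choroid plexus genes marked particular dorsal libraries: the choroid plexus sum was 5584, 6769, 2921 and 908 CPM in the dorsal libraries of mice 5, 6, 13 and 24 and at most 141 CPM in the other 8, and none of 5 choroid plexus genes tested passed. Of 3 ependymal genes tested 2 passed as lower in the ventral striatum in 12 mice, and all 3 in 8. The named gene Ezr was highest in the dorsal libraries of mice 13, 6 and 5, at 104, 84.7 and 84.4 CPM. It was at 83.4 CPM in that of mouse 23, whose choroid plexus sum was 2.23 CPM. The part of choroid plexus in the Ezr difference was not tested.

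Immediate early genes, induced by neuronal activity, and genes of ethanol metabolism were listed because all mice had drunk ethanol. Of 19 activity genes, none was higher and 4 were lower in the ventral striatum (median -0.19), against 5.68% of all genes lower. Egr1 was at 45.6 to 459 CPM (median 165) against 152 to 329 CPM (median 232), a difference of -0.65 ± 0.18 (edgeR adjusted p = 0.0328). Arc (-0.80 ± 0.18), Egr2 (-1.02 ± 0.28) and the phosphatase Dusp6 (-0.53 ± 0.15) were the others, and in the 8 mice only Egr2 passed (-0.77 ± 0.22, edgeR adjusted p = 0.0374). Fos differed by 0.04 ± 0.15. Of 13 genes of ethanol and acetate metabolism, 2 passed in 12 mice, both lower in the ventral striatum, against 5.68% of all genes: mitochondrial aldehyde dehydrogenase Aldh2 (94.0 to 121 CPM against 94.8 to 167 CPM, -0.26 ± 0.07, edgeR adjusted p = 0.0375) and the monocarboxylate transporter Slc16a1 (-0.30 ± 0.09, edgeR adjusted p = 0.0489). Both pairs of ranges overlapped. In the 8 mice both passed again, and Aldh1b1, another aldehyde dehydrogenase, passed as higher (0.45 ± 0.12, edgeR adjusted p = 0.0306).

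In WT mice alone, 1 of 13627 genes passed (0.00734%), the receptor tyrosine kinase Alk, and 1942 had an unadjusted p under 0.05. Alk was at 11.7 to 24.98 CPM (median 18.6) in the 12 ventral and at 3.63 to 8.40 CPM (median 7.47) in the 12 dorsal libraries, with no overlap. Its log2 fold change was 1.50 ± 0.14 in WT mice (SE, edgeR adjusted p = 0.0419) and 1.05 ± 0.17 in KO mice (edgeR adjusted p = 0.0153). In the 6 KO mice 366 of 13682 genes passed (2.68%), 247 higher (1.81%) and 119 lower (0.87%) in the ventral striatum. Leaving mouse 10, with both libraries low, out of the KO mice gave 2030 calls among 13657 genes (14.9%), 878 higher (6.43%) and 1152 lower (8.44%), and leaving mouse 24 out of the WT mice gave 167. The 3 WT mice with ordinary scores gave 0 calls in edgeR, with 1025 genes at an unadjusted p under 0.05. Such counts are no test of a difference between the genotypes, which is given below. The fits differ in their mice: 3 of 6 WT mice and 1 of 6 KO mice had a low library. Leaving those mice out kept 3 WT and 5 KO mice. The cause of the unequal counts was not tested. Of the 366 KO calls, 355 had the same sign in the WT mice (97.0%), against 68.4% of the 13488 genes in both fits, and the genotypes share no mice.

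The difference itself was tested as an interaction. For 0 of 13599 genes did the region difference differ between KO and WT mice in edgeR, with 592 at an unadjusted p under 0.05 and 0 in DESeq2. The smallest p belonged to Cdc40, a splicing factor, with log2 fold changes of -0.48 ± 0.09 in WT and -0.03 ± 0.08 in KO mice (edgeR adjusted p of the difference 0.942). For Dlk1 the fold changes were 2.88 ± 0.79 in WT and 4.15 in KO mice, a difference of 1.39 ± 0.92, and for Thbs4 -3.64 and -2.88, a difference of 0.77 ± 0.81. Of the 24 named genes, 20 passed in KO mice alone and 0 in WT mice alone. In WT mice their edgeR adjusted p-values ran from 0.0825 to 0.319, and all 24 had an unadjusted p under 0.05. The 24 were chosen from these same mice, as called genes with the same direction in every mouse. That choice favours low p-values within each genotype, so these counts are no separate evidence for the region differences in WT or in KO mice. Between the sexes, likewise, 0 of 13599 region differences differed in edgeR, with 1024 at an unadjusted p under 0.05 and 2 in DESeq2 (Pvalb and Nr2f2, named after these calls were seen). The smallest p was that of Zfp169, a zinc finger gene, with fold changes of 0.52 in females and -0.33 in males (edgeR adjusted p of the difference 0.471).

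**Figure D4:**
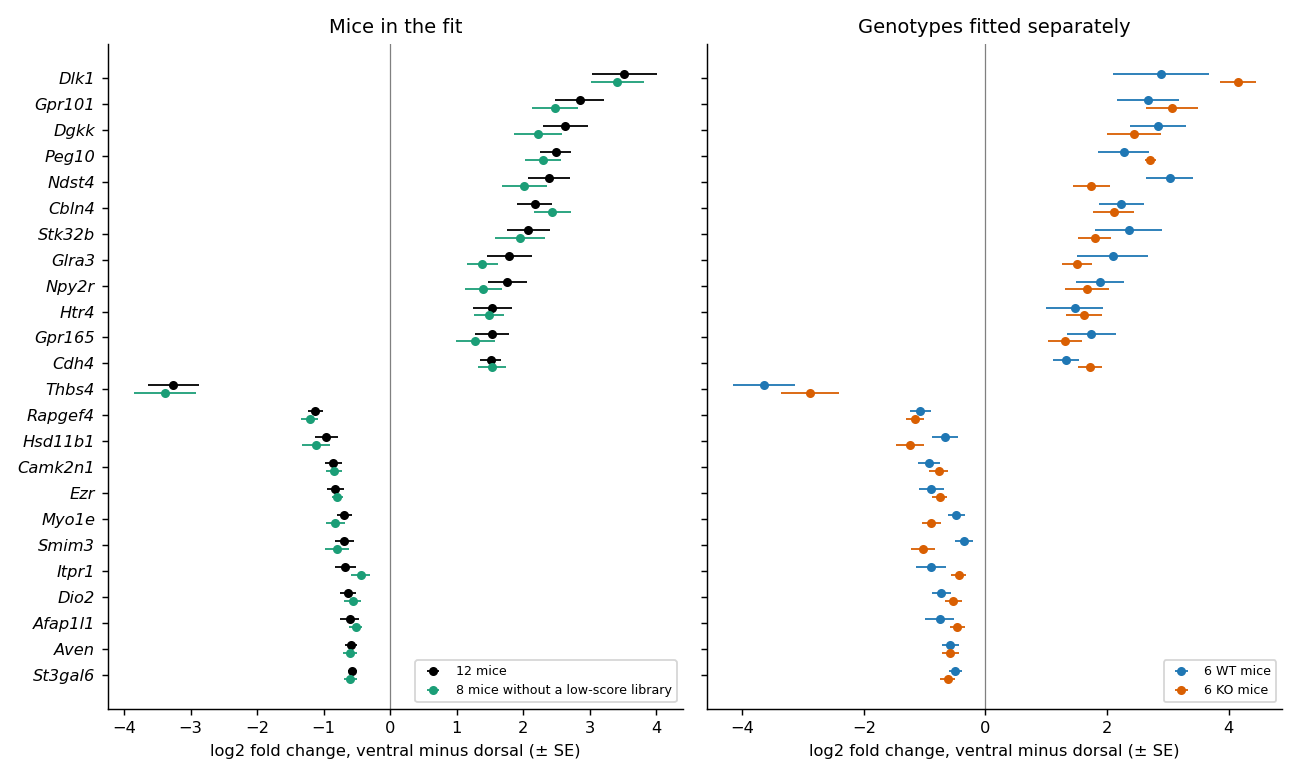
Points are log2 fold changes of ventral over dorsal striatum with SE bars for the 24 named genes, in 12 and in 8 mice on the left and in WT and KO mice fitted separately on the right. Directions are the same in every fit shown, which the choice of genes with 1 direction in all 12 mice fixes. WT and KO values lie apart most for Ndst4 and Dlk1, whose differences did not pass the test.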

How the data were processed

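The authors deposited raw read counts per gene symbol, with a table for each sex and 55367 symbols. Per the submitters' processing notes the tools were STAR 2.5.2a, SAMtools 1.1, HTSeq 0.6.1 and DESeq2 in R 4.0.2, with the builds GRCm38 and mm10. Annotation and strand setting are not given in the sources used here. Libraries were assigned to region, sex, genotype and mouse from their titles. Gene positions were looked up by symbol in GENCODE M21.

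Ventral and dorsal libraries were compared with edgeR 4.0.16 (R 4.3.3) on counts: TMM, filterByExpr by region, the mouse as a block, glmQLFTest, Benjamini-Hochberg adjustment over all genes tested and a threshold of 0.05. DESeq2 1.42.0 was an alternative. The fits were tested on simulated data. The labels give a mouse id, which pairs the regions. Deviations from the group means correlated with a mean r of 0.161 over the 12 same-mouse pairs (over 0.1 in 10) and of -0.0786 over 24 pairs of different mice. The 24 pairs of libraries of the same sex, genotype and region differed by 5.07 to 53.7 chi-square units per gene, so none of these pairs were duplicates. Other pairs were not compared in this way. CPM is a count per 1000000 counts, and floors cover counting error only. The SE values come from the edgeR fit and include the spread between animals.

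Named genes were the 12 called in each direction with the largest fold change among those moving the same way in all 12 mice. Other genes named come from 41 lists, except where stated. Members and lists were chosen with earlier results of these data known, and the score that set aside 4 mice uses projection neuron genes, so those genes are no independent evidence in the 8 mice. Some members of the lists are counted but their own values are not reported here.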

Additional observations from a re-analysis of the deposited data

Results flagged for a closer look

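The score of projection neuron genes and the summed CPM of 6 sets of marker genes were examined in the 4 groups of 6 libraries formed by region and genotype, 28 sets of values in all, of which chance alone would mark about 1 in 20 as holding a sample far from the others. In 6 of them a library stood apart. The score did so for the dorsal library of mouse 10 (5.41) and the ventral library of mouse 10 (6.48) among the KO libraries, and for the dorsal library of mouse 23 (4.72) among the WT dorsal libraries. The dorsal library of mouse 10 also stood apart with 4036 CPM of cortical excitatory neuron genes among the KO dorsal libraries. The dorsal library of mouse 13 had 2921 CPM of choroid plexus genes, the highest of the WT dorsal libraries. The ventral library of mouse 13 had 1955 CPM of hypothalamic, preoptic and extended amygdala genes, the highest of the WT ventral libraries. The cause of these values was not tested.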

How the results depend on the processing

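Depth limits genes near 3 counts, and the SE of projection neuron genes limits what their comparison can show. The 107 called genes named in the text kept their direction under every alternative run. Without the mouse term (no replicate block) 1529 genes were called in place of 1568, and 15 of the 107 calls were lost. Other settings lost 1 (DESeq2's test), 2 (DESeq2 size factors), 3 (no low-count filter), 4 (length and GC offsets), 18 (8 mice), 12 (the 19 libraries without the block), 67 (males alone) and 98 (females alone) of the 107. Leaving out each mouse in turn lost 2 to 20 of them, the most without mouse 4.

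For both genotypes together, 188 calls had at least a 2-fold difference, 194 were made in males alone and 42 in females alone, with 6 mice each. A fit chosen after seeing the data, of the 19 libraries with ordinary scores and no replicate block, gave 3241. Leaving out each mouse gave 848 (mouse 4) to 2058 (mouse 10) calls.

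In WT mice, no low-count filter gave 336 calls, DESeq2's test 429, no replicate block 41, length and GC offsets 0, the 3 mice with ordinary scores 0, the 9 ordinary libraries without the block 17, males 45 and females 0. Leaving out each mouse gave 0 to 167. In KO mice, no filter gave 1410, DESeq2's test 751, and the mice or libraries with ordinary scores 2030 with and 2047 without the block. Leaving out each mouse gave 95 to 2030, the highest without mouse 10. The genotype difference stayed at 0 calls under every alternative. The sex difference gave 4 calls with no filter, 2 in DESeq2's test, 1 without the block and 0 to 1 when a mouse was left out. The cause of these moves was not tested.

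Values of genes that were not called changed sign. In females alone Drd1 was at 0.16, Drd2 at 0.14, Adora2a at 0.32 and Fos at -0.086. In males alone Penk was at -0.19 and Tac1 at -0.15. Without the block Penk was at -0.043, Tac1 at -0.040 and Fos at -0.014. In the 8 mice Tac1 was at -0.030 and Fos at -0.11. Leaving out each mouse gave -0.50 to 0.0094 for Drd1, -0.45 to 0.12 for Adora2a, -0.14 to 0.36 for Penk, -0.15 to 0.22 for Tac1 and -0.059 to 0.095 for Fos.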

Other observations

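Among 12 genes that tell striosomes from the surrounding matrix, 3 were higher in the ventral striatum and 1 was lower (median 0.23). The shares over all genes were 5.85% and 5.68%. Higher were Oprm1, Nnat and the Ly6-family protein Lypd1 (0.68 ± 0.13), and lower was Kremen1, a Wnt pathway receptor (-0.58 ± 0.17). Kremen1 and Nnat did not pass in the 8 mice (edgeR adjusted p = 0.121 and 0.069), and Pdyn did. Matrix marker Calb1 differed by 0.15 ± 0.16. Retinoid genes gave 1 call in each direction among 12 tested, near the shares of all genes. These were Rxra at 0.29 ± 0.08 and the binding protein Crabp2 at -0.85 ± 0.22, and neither passed in the 8 mice.

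All 11 vessel wall genes had negative fold changes in 12 mice, and 3 were called lower in the ventral striatum, against 5.68% of all genes. These were the pericyte gene Rgs5 (-0.50 ± 0.08), which also passed in the 8 mice, Kcnj8 (-0.60 ± 0.14) and Ly6c1 (-0.23 ± 0.07). Ntn1, the axon guidance molecule netrin-1, was chosen after its values were seen: it was at 18.2 to 48.8 CPM in the ventral and at 8.25 to 15.3 CPM in the dorsal libraries, and differed by 1.37 ± 0.13 (edgeR adjusted p = 7.54e-05).

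Outside the striatum, the projection neuron score reached 8.36 in a ventral hippocampus library, where the median of the region was 4.70, and up to 7.53 in the prefrontal cortex and 7.49 in the amygdala. An exchange of tubes between such libraries and the 5 striatal ones with low scores was not tested, and it would change what their values mean.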
